A study of Mus musculus with 59 samples.

Results

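The effects of 2 preservatives of the paraben family on mouse mammary tumors were compared with each other: 20 tumors from the propylparaben group and 20 tumors from the methylparaben group, of 59 tumors profiled in all. The members were chosen by the treatment label alone. Each tumor gave 1 library of bulk RNA, read as 1 value per gene and, in a separate table, 1 value per set of introns of a gene. Both ester groups and the 19 vehicle tumors share strain and genotype: the strain is written B6.FVB-Tg(MMTV-PyVT)634Mul/LellJ and the genotype PyMT (+/-), so the controls carry the oncogene too. The groups are thus propylparaben-treated, methylparaben-treated and vehicle-treated PyMT (+/-) mice. The labels used here give no dose, length of exposure, age or collection date, and do not say which tumors shared a mouse. Matched doses of the esters therefore cannot be checked. The p-values set mean differences against the spread between these tumors. If tumors shared a mouse, the 20 tumors of a group are not 20 independent animals. The p-values may then be too small and the intervals too narrow.

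Parabens are esters of para-hydroxybenzoic acid used to preserve cosmetics, drugs and foods. The propyl ester carries a propyl chain where the methyl ester carries a methyl group. Carboxylesterases split both to the same acid and an alcohol. Parabens are weak ligands of the estrogen receptor, and in reporter assays their activity grows with the length of the chain. In the MMTV-PyMT model the polyoma middle T oncogene is driven by the mouse mammary tumor virus promoter, which is active in mammary epithelium, and the resulting tumors lose estrogen receptor as they progress. The comparison of the esters asks which transcripts, if any, distinguish tumors grown under the longer chain from tumors grown under the shorter one.

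The libraries were shallow. The reads on genes numbered 1166502 to 2032789 in propylparaben and 1271085 to 1983897 in methylparaben libraries. Of 6 library measures (reads on genes, reads on introns, reads outside features, multiply mapped reads, share of mitochondrial reads and scaling factor between libraries), 0 passed a two-sided permutation test between the esters of 100000 resamples, with the smallest adjusted p = 0.746. That smallest p belonged to the mitochondrial share of reads, 3.43 ± 0.449% in propylparaben and 4.03 ± 1.86% in methylparaben libraries (SD, n = 20 each). Methylparaben replicate 5 alone reached 11.5%. All 8 genes listed for mammary epithelium, the labelled tissue, were detected. Their summed levels were 1649 to 2741 normalized counts in propylparaben and 1685 to 2636 in methylparaben tumors. Detection alone does not establish the tissue of origin. Levels here are normalized counts, which are scaled to library size and not divided by gene length, so they are compared between tumors and not between genes. Fold changes are log2 differences of (value + 1), propylparaben minus methylparaben.

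Before the results, 5 methylparaben libraries have to be named because their summed levels of skin, or of fat and muscle, marker genes lead all 59 libraries. Methylparaben replicate 5 had a summed level of 16188 for 13 adipocyte genes, where the highest propylparaben library had 4200.2 and the methylparaben median was 944. The same library had 2105 for 5 brown fat genes, against 80.4 in the highest propylparaben library. It also had 11813 for 14 skeletal muscle genes, against 1330.2 in the highest propylparaben library. Methylparaben replicates 10, 6, 20 and 7 had summed skin levels of 969, 248, 229 and 164, against 83.5 in the highest propylparaben library. Vehicle replicates 8, 18, 13 and 10, at 109, 107, 103 and 84.0, also lay above every propylparaben library. The median summed level of the skin genes was 25.1 with propylparaben and 34.3 with methylparaben. Krt2 was at 0 in every propylparaben library among the 12 skin markers, as was Elovl3 among the 6 brown fat markers and Mzb1 among the 10 plasma cell markers. Cd79a of the 10 B cell markers and Car1 of the 8 erythroid markers were at 0 in every methylparaben library. The share of all genes at 0 in 1 ester group was not counted. In bulk tumor RNA, more cells of a type and more RNA per cell cannot be told apart. Results that rest on these libraries are given with and without them.

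**Figure D1:**
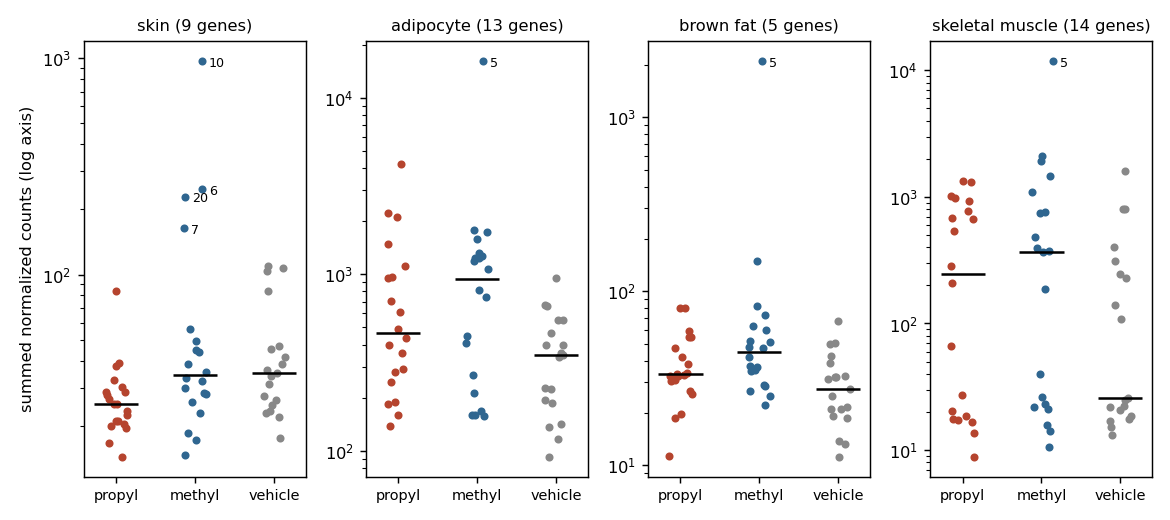
Summed normalized counts (log axis) of skin, adipocyte, brown fat and skeletal muscle marker genes in each tumor, by group; each point is 1 library, each bar the group median, and the numbers are methylparaben replicates. Replicate 5 lies highest for adipocyte, brown fat and muscle genes and replicate 10 highest for skin genes, while the skin medians are 25.1 with propylparaben and 34.3 with methylparaben.

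No gene separated the tumors of the esters at an adjusted p under 0.05. Of 14487 genes tested with limma over all 59 libraries, 0 rose and 0 fell with propylparaben relative to methylparaben (0.00% called), and 311 had an unadjusted p under 0.05 (114 higher and 197 lower with propylparaben, 2.15% of genes). The smallest adjusted p by limma was 0.238, for Cnst. For 0 genes did the 20 propylparaben values and the 20 methylparaben values fail to overlap. The median fold change over all genes was -0.0073 on the log2 scale, and 46.6% of genes lay above 0. With quantile normalization that median was 0.0051, and 52.5% of genes lay above 0. On reads recovered from the values edgeR called 21 genes (0.145%) and DESeq2 0 (0.00%). Of the 21, 20 were lower with propylparaben (0.138%), and they are described below with the libraries that hold them.

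The intervals say how large a difference on the log2(value + 1) scale these tumors could still hide. That scale understates the change of low genes, so the intervals do not bound their change in level. Ucp1 had -0.70 by limma and -8.13 by edgeR, and Comp 0.46 by limma and 3.19 by edgeR. The median standard error was 0.118, so that the median 95% interval reached 0.236 to either side of the estimate on the log2 scale. For 12942 genes (89.3%) the whole interval lay within 1.5-fold in either direction, and for 14293 (98.7%) within 2-fold. The share within 1.5-fold was 77.9% of the 5344 genes with a mean level of 1 to 10, 95.6% of the 7599 genes at 10 to 100 and 98.1% of the 1544 genes at 100 and above. Estimates ran from -1.24 (Calm4) to 0.71 (Ahsg), and 4 genes had an estimate of 1 or more in size. The spread within the groups was close: the median SD of a gene on the log2 scale was 0.345 among propylparaben, 0.353 among methylparaben and 0.393 among vehicle tumors.

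**Figure D2:**
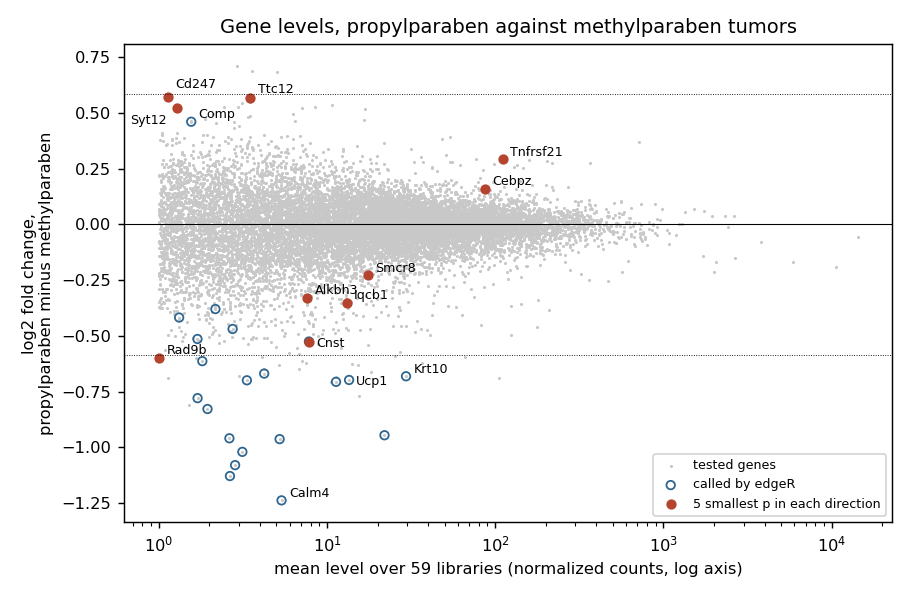
Log2 fold change (propylparaben minus methylparaben) of 14487 genes against mean level over 59 libraries (log axis); dotted lines mark 1.5-fold. Red points are the 10 genes that lead the ranking by p, 5 on each side of 0, none of which passed the adjusted threshold, and blue rings are the 21 genes called by edgeR, 20 of them below 0.

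None of the genes named next passed the adjusted limma test; they lead the ranking by p. Cnst, which encodes consortin, a protein that carries connexins to the cell surface, lies at chromosome 1, 179546370 to 179627478 (GRCm38). Its lowest, median and highest levels were 3.63, 6.06 and 11.6 in the propylparaben tumors, against 5.71, 9.40 and 22.6 in the methylparaben tumors. Propylparaben values lay below the methylparaben median in 19 of 20 tumors, but the groups overlapped between 5.71 and 11.6. The fold change was -0.53 (95% interval -0.75 to -0.30), with an unadjusted p = 1.64e-05 and an adjusted p = 0.238 by limma. On the recovered reads edgeR called Cnst, at an adjusted p = 0.0326. Vehicle tumors lay between the esters, at 7.55 ± 1.95 (SD, n = 19). The highest value belonged to methylparaben replicate 5; without that library the fold change was -0.46 with adjusted p = 0.461. Without propylparaben replicate 17, which held the highest propylparaben value, the adjusted p of Cnst was 0.0357 by limma, the only one of 59 omissions to pass the threshold; the others ran up to 0.622. The intron reads of Cnst had a fold change of -0.28 at p = 0.0773 by limma.

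Rad9b encodes a germline-biased paralog of the Rad9 checkpoint clamp subunit and lies at chromosome 5, 122323223 to 122354233. Its lowest, median and highest levels were 0, 0.501 and 1.43 in the propylparaben tumors, against 0.412, 1.20 and 3.98 in the methylparaben tumors, with a fold change of -0.60 (95% interval -0.93 to -0.27) and p = 0.000559 by limma. At about 1 normalized count this gene rests on very few reads per library, and it overlaps Pptc7 on the other strand. Iqcb1, whose product nephrocystin-5 sits at the base of the primary cilium, lies at chromosome 16, 36828385 to 36872721. Its lowest, median and highest levels were 6.20, 12 and 15.2 in the propylparaben tumors, against 8.63, 15.2 and 23.7 in the methylparaben tumors, with 19 of 20 propylparaben values below the methylparaben median, a fold change of -0.35 (-0.56 to -0.15) and p = 0.0011 by limma. Alkbh3, a demethylase that repairs alkylated nucleic acids (chromosome 2, 93980550 to 94010807), ran 4.11, 6.18 and 10.7 in the propylparaben tumors, against 5.50, 8.50 and 12 in the methylparaben tumors as lowest, median and highest, with a fold change of -0.33 and p = 0.00158 by limma. Smcr8, a partner of C9orf72 in autophagy (chromosome 11, 60777524 to 60788287), had levels of 16.8 ± 2.52 in propylparaben tumors and 19.9 ± 2.97 in methylparaben tumors (SD, n = 20 each), a fold change of -0.23 and p = 0.00208 by limma. In each of these genes the groups overlapped, and each except Cnst has an annotated gene on the opposite strand, which matters because the strand setting of the counting is not given in the sources used here.

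In the other direction the smallest p belonged to Cd247, the zeta chain of the T cell receptor complex (chromosome 1, 165788681 to 165877277). Its lowest, median and highest levels were 0, 1.16 and 3.62 in the propylparaben tumors, against 0, 0.458 and 1.57 in the methylparaben tumors, with a fold change of 0.57 (0.22 to 0.93) and p = 0.00211 by limma. The level is again that of very few reads, vehicle tumors averaged 1.44, and Pou2f1 overlaps on the other strand. Of the T cell markers, the 6 that reached a mean of 1, of 12 listed, had a median fold change of 0.026, and Cd3d, another chain of the same complex, had -0.13 (-0.52 to 0.26). Ttc12, a factor for assembly of axonemal dynein (chromosome 9, 49436963 to 49486225), had lowest, median and highest levels of 1.61, 3.38 and 8.19 in the propylparaben tumors, against 0.43, 2.39 and 5.35 in the methylparaben tumors, a fold change of 0.56 and p = 0.00318 by limma. Tnfrsf21 encodes death receptor 6 (chromosome 17, 43016555 to 43089189). Its lowest, median and highest levels were 84.9, 124 and 182 in the propylparaben tumors, against 62.4, 98.5 and 147 in the methylparaben tumors, with 17 of 20 propylparaben values above the methylparaben median, a fold change of 0.29 (0.095 to 0.49) and p = 0.00437 by limma. Cebpz, a ribosome biogenesis factor (chromosome 17, 78919006 to 78937066), had levels of 88.5 ± 10.8 in propylparaben tumors and 79 ± 8.35 in methylparaben tumors (SD, n = 20 each), a fold change of 0.16 and p = 0.00335 by limma, while its introns pointed the other way at -0.22. Syt12, of the synaptotagmin family (chromosome 19, 4445908 to 4477447), had levels of 1.84 ± 1.12 in propylparaben tumors and 0.932 ± 0.700 in methylparaben tumors (SD, n = 20 each), a fold change of 0.52 and p = 0.00513 by limma. Its introns had a fold change of 0.83 at p = 0.0136.

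**Figure D3:**
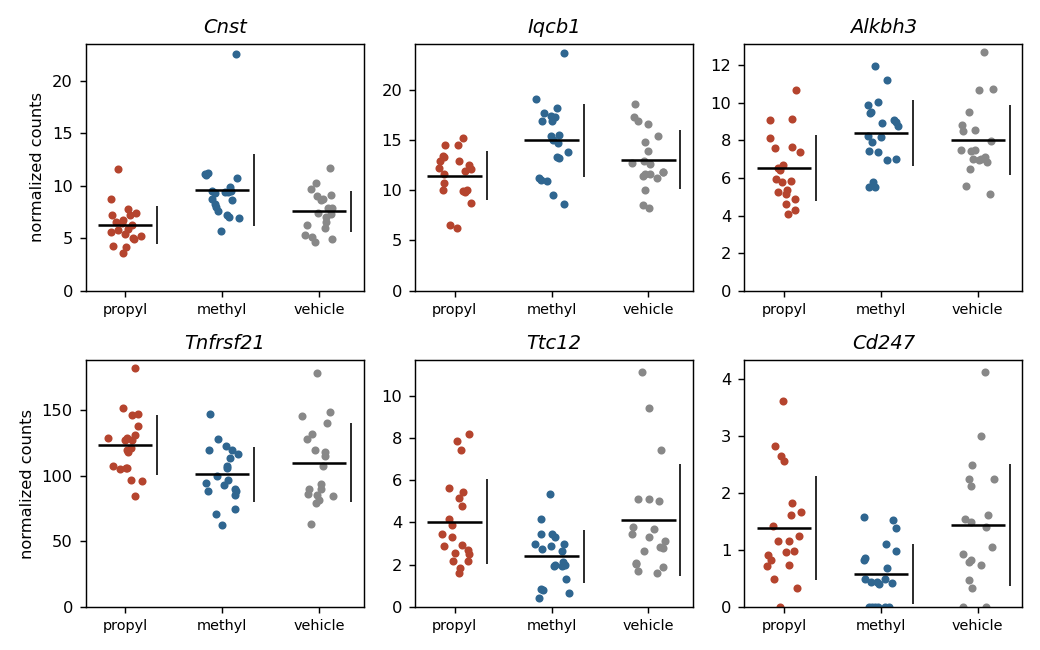
Normalized counts of 6 genes with small p in each tumor, by group; long bars are means and vertical bars 1 SD. In every panel the propylparaben and methylparaben points overlap, and Cnst has 1 methylparaben value of 22.6 above all the others.

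No gene of the hormone receptor or response lists, the best known targets of parabens, passed the test. Esr1, the estrogen receptor, had lowest, median and highest levels of 5.63, 18.8 and 37.3 in the propylparaben tumors, against 4.35, 18.3 and 44.5 in the methylparaben tumors. The averages were 19.9 ± 8.66 in propylparaben tumors and 19.6 ± 7.75 in methylparaben tumors, against 11.5 ± 7.31 in vehicle tumors (SD, n = 20, 20 and 19). The fold change between the esters was -0.016 with a 95% interval of -0.47 to 0.43. Its introns had a fold change of 0.025. Pgr, the progesterone receptor and a target of estrogen receptor, averaged 25.5 ± 17.7 in propylparaben tumors and 31.6 ± 14.8 in methylparaben tumors, with a fold change of -0.41 and a wide interval of -1.09 to 0.27. The highest Pgr value was 75.4 in a propylparaben tumor and 59.4 in a methylparaben tumor. Greb1, another estrogen target, had a fold change of -0.24 (-0.69 to 0.21). Gata3, the luminal transcription factor, averaged 455 ± 90.1 in propylparaben tumors and 472 ± 66.1 in methylparaben tumors with a fold change of -0.068 (-0.34 to 0.20).

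Over the 13 tested genes of the hormone receptor list, 0 were called, 6 lay above 0 and the median fold change was -0.0059; over the 17 tested genes of the estrogen and progesterone response list, 0 were called, 8 lay above 0 and the median was -0.028. Both medians lie near the -0.0073 of all genes. The vitamin D receptor Vdr had the smallest p on the first list, with levels of 58.7 ± 14.8 in propylparaben tumors and 52 ± 14 in methylparaben tumors and a fold change of 0.18 (-0.045 to 0.40). Calca, which encodes calcitonin, had the smallest p on the second, with a fold change of 0.39 (-0.21 to 0.98). The 95% interval lay within 2-fold for 12 of the 13 receptors and for 16 of the 17 response genes. Of the luminal transcription factors 6 of 15 and of the luminal keratins and junction genes 6 of 14 lay above 0, with medians of -0.018 and -0.022. The 13 milk protein genes tested had a median of -0.012, with opposite estimates for the casein gene Csn1s2b (0.39, p = 0.0259 by limma) and the whey protein gene Wap (-0.47, p = 0.197).

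The genes that clear the esters were mostly too low to test. Of 20 listed genes for ester and hydroxybenzoate metabolism 8 reached a mean level of 1, 0 were called and their median was -0.17. Ces1d, a carboxylesterase, had lowest, median and highest levels of 0, 2.78 and 27.4 in the propylparaben tumors, against 0, 4.41 and 252 in the methylparaben tumors. The value of 252 came from methylparaben replicate 5, the library rich in adipocyte genes; the fold change was -0.46 (-1.27 to 0.36) with it and -0.17 without it. Without that library the median of the list was -0.025 over 7 genes. Bche, butyrylcholinesterase, had a fold change of -0.25 (-0.67 to 0.16). Ahr, the aryl hydrocarbon receptor, averaged 67.1 ± 14.2 in propylparaben tumors and 72.1 ± 28.3 in methylparaben tumors with a fold change of -0.066 (-0.31 to 0.18), and its list of 10 tested drug metabolism genes had a median of -0.0067.

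Genes called against vehicle were next compared between the esters. Against the same 19 vehicle tumors limma called 4 genes with propylparaben (4 higher and 0 lower, 0.0276% of genes) and 191 with methylparaben (99 higher and 92 lower, 1.32%). Both comparisons share the vehicle libraries, and a call with one ester and not with the other does not show that the esters differ. Arhgef6, a Rac and Cdc42 exchange factor, averaged 169 ± 40.5 in propylparaben tumors and 155 ± 29.7 in methylparaben tumors, against 106 ± 40.8 in vehicle tumors. Its adjusted p against vehicle was 0.0167 for propylparaben and 0.0239 for methylparaben by limma, and its fold change between the esters was 0.10 (-0.17 to 0.38). Irs1, the insulin receptor substrate, averaged 99.4 ± 25.1 in propylparaben tumors and 103 ± 20.4 in methylparaben tumors, against 65.9 ± 27.5 with vehicle, and differed between the esters by -0.072 (-0.33 to 0.18). Pdgfd, a platelet-derived growth factor, averaged 4.58 in propylparaben and 4.28 in methylparaben tumors, against 2.45 with vehicle, with a difference between esters of 0.080 (-0.21 to 0.37). Otud1, a deubiquitinase, averaged 14.3 in propylparaben and 14.1 in methylparaben tumors, against 9.15 with vehicle, with a difference of 0.014 (-0.27 to 0.29). For each of these 4 genes the interval between the esters lay within 1.5-fold.

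Of the 191 genes called with methylparaben, 0 were called between the esters and 8 (4 higher and 4 lower than vehicle) had an unadjusted p under 0.05, which 2.15% of all genes had. The 99 genes called higher than vehicle had a median difference between the esters of -0.098, with 82.8% of intervals within 1.5-fold. The 92 called lower had a median of 0.089, with 92.4% within 1.5-fold. Over both, the interval lay within 1.5-fold for 167 of them (87.4%), close to the 89.3% of all genes, and within 2-fold for 189. Tppp, a tubulin polymerization protein, had the lowest estimate among them: its levels were 9.76 ± 5.80 in propylparaben tumors and 12.8 ± 7.17 in methylparaben tumors, against 5.39 ± 3.46 with vehicle, and the difference between the esters was -0.49 (-1.02 to 0.040) at p = 0.0693 by limma. Hist3h2ba, a histone gene, had the highest estimate, 0.40. Rcor2, a corepressor of the neural silencing complex that was among the genes lower than vehicle with methylparaben, averaged 6.19 ± 5.89 in propylparaben tumors and 4.97 ± 3.06 in methylparaben tumors, against 16.1 ± 13.8 with vehicle. Its fold change between the esters was -0.00059 with an interval of -0.61 to 0.61. These genes were chosen on the methylparaben libraries, so their estimates are not independent of that choice.

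**Figure D4:**
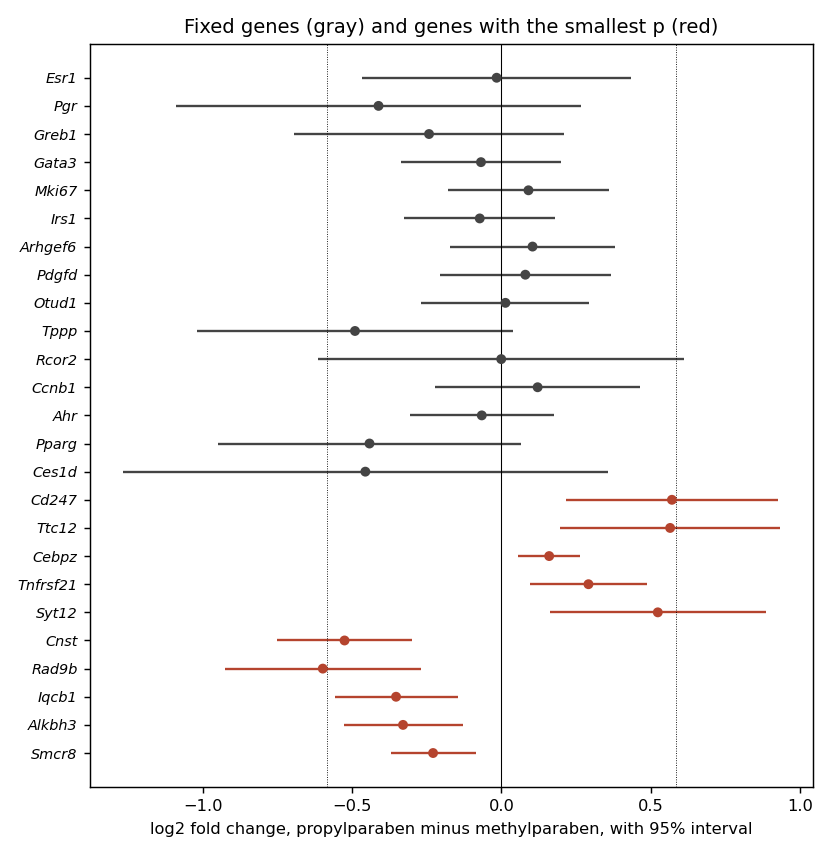
Log2 fold change (propylparaben minus methylparaben) with its 95% interval for 15 genes named for their roles or their calls against vehicle (gray) and 10 genes with the smallest p (red); dotted lines mark 1.5-fold. All gray intervals include 0, and those of Pgr, Tppp, Pparg and Ces1d are the ones that run past 1.5-fold on the lower side by the most.

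Proliferation genes had estimates slightly above 0, without a call. Mki67 averaged 58.7 ± 20.6 in propylparaben tumors and 53.3 ± 10.9 in methylparaben tumors with a fold change of 0.091 (-0.18 to 0.36), and the mitotic cyclin Ccnb1 averaged 22.2 ± 9.31 in propylparaben tumors and 19.9 ± 6.49 in methylparaben tumors with 0.12 (-0.22 to 0.47). Of 20 mitosis genes 0 were called and 17 lay above 0, with a median of 0.11; of 20 DNA replication genes 0 were called and 17 lay above 0, with a median of 0.073. The summed mitosis level ran 517 to 1967 in propylparaben and 442 to 1577 in methylparaben tumors, and propylparaben replicate 1 was the highest of all 40. Genes of a list are not independent of each other, so a count of signs is a description. Bub1b, a spindle checkpoint kinase, had the smallest p on the mitosis list, with a fold change of 0.26 (-0.092 to 0.60). Without methylparaben replicate 5 the mitosis median was 0.062, the DNA replication median was 0.036 with 15 of 20 genes above 0, and the fold change of Ccnb1 was 0.042. Without propylparaben replicate 1 the fold change of Mki67 was 0.033, its lowest by limma under 59 single omissions. The mean log2 level of the mitosis list had a median of 4.98 in propylparaben and 4.87 in methylparaben tumors. For DNA replication these medians were 4.198 with propylparaben and 4.202 with methylparaben.

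Lists of respiratory chain, fatty acid oxidation and PPAR target genes had medians below 0 without a call, and these medians lay closer to 0 without methylparaben replicate 5. All 20 nuclear genes of the respiratory chain lay below 0, with a median of -0.10, and 14 of them remained below 0 when methylparaben replicate 5 was left out, with a median of -0.015. The 7 mitochondrially encoded genes tested lay below 0, with medians of -0.21 with and -0.082 without that library. For fatty acid oxidation 16 of 17 genes lay below 0; the median was -0.15 with the library and -0.021 without it. For targets of PPAR, the nuclear receptor of fat storage and oxidation, the median was -0.27 with it, -0.067 without it and 0.0089 without all 5 methylparaben libraries. These omissions kept propylparaben replicates 5 and 10, whose summed levels of 2533 and 1488 were the highest of that group. The median summed level over all tumors of a group was 690 with propylparaben and 889 with methylparaben, a difference that was not tested. Pparg itself had lowest, median and highest levels of 0, 2.54 and 10.6 in the propylparaben tumors, against 0.865, 2.78 and 60.4 in the methylparaben tumors. Its highest value came from methylparaben replicate 5, and the fold change was -0.44 (-0.95 to 0.065) with the library and -0.24 without it. Ndufa9, a complex I subunit, and Uqcrfs1, a complex III subunit, had fold changes of -0.20 and -0.19 at unadjusted p = 0.0287 and 0.0288 by limma. Both were highest in methylparaben replicate 5, without which the fold change was -0.14 at p = 0.0753 for Ndufa9 and -0.12 at p = 0.0743 for Uqcrfs1 by limma.

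In all, 59 gene lists held 748 tested genes, of which 0 were called and 17 had an unadjusted p under 0.05, beside 311 of all 14487 genes. The skin list alone held 7 of these 17. The median fold change lay within 0.1 of 0 for 44 lists. Of the other pathways, 9 of 9 tested MHC class II genes, 14 of 14 MHC class I genes and 20 of 20 interferon-stimulated genes were without a call, with medians of -0.013, -0.0029 and -0.047. Insulin and IGF signaling (-0.014 over 20 genes), ERBB receptors and ligands (-0.016 over 15), Notch (-0.015 over 16), Wnt (-0.065 over 17) and TGF-beta (-0.00081 over 18) also had medians near 0. Axin2, a feedback target of Wnt signaling, had the smallest p on the Wnt list: its levels averaged 4.86 in propylparaben and 10.4 in methylparaben tumors, with a fold change of -0.62 (-1.10 to -0.14) at p = 0.0126 by limma. Its highest methylparaben value was 77.9, in replicate 20, and the next 14.6; without the 5 methylparaben libraries its fold change was -0.34 (-0.78 to 0.094). Manf and Trib3, induced by unfolded protein in the endoplasmic reticulum, had fold changes of 0.17 and 0.28 at p = 0.027 and 0.047, on a list whose median was -0.0068. The basal and myoepithelial list lay lower with propylparaben in 12 of 14 genes, with a median of -0.16, and -0.15 without the 5 methylparaben libraries. The median tumor pointed the other way: the mean log2 level of the list had a median of 5.078 in propylparaben and 4.996 in methylparaben tumors. The lowest tumor was at 3.43 with propylparaben and 4.09 with methylparaben. Of its 12 intron sets tested, 5 lay above 0. Krt5, a basal keratin, averaged 42.5 ± 24.8 in propylparaben tumors and 52 ± 25.6 in methylparaben tumors with a fold change of -0.41 (-0.99 to 0.18).

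Among cell type markers 0 genes were called by limma, and the medians farthest from 0 were those of the skin, brown fat, skeletal muscle and adipocyte lists. Medians were -0.019 for 12 macrophage, 0.026 for 6 T cell, 0.0099 for 6 cytotoxic, -0.014 for 14 fibroblast and -0.038 for 12 endothelial genes. Without the 5 methylparaben libraries the fibroblast median was 0.11. That omission took methylparaben replicate 10, at rank 4 of 59 for summed fibroblast level. It kept propylparaben replicates 14 and 11, at ranks 1 and 2. No propylparaben library was left out with the 5, so shifts of list medians without them give no direction between the esters. The mast cell median was -0.13 over 6 genes and -0.041 without the 5 libraries. The plasma cell median was 0.092 over 7 genes and -0.061 without them, and the erythroid median -0.20 over 5 genes and 0.015 without them. Emcn, an endothelial surface protein, averaged 7.66 ± 2.61 in propylparaben tumors and 9.37 ± 1.98 in methylparaben tumors with a fold change of -0.30 at p = 0.0162 by limma. The 9 skin genes tested, of 12 listed, all lay below 0 with a median of -0.69, but without the 5 libraries only 4 of them reached a mean of 1, with a median of -0.11. The adipocyte median was -0.30 over 13 genes and -0.082 with methylparaben replicate 5 left out. For brown fat the median was -0.48 over 5 genes and -0.23 over 4 without it. All 14 skeletal muscle genes lay below 0 with a median of -0.42. Without methylparaben replicate 5 the median was -0.12, and without all 5 libraries all 14 lay above 0 with a median of 0.32. For summed muscle level, methylparaben replicates 5, 10 and 6 ranked 1, 2 and 3 of 59. Propylparaben replicates 11 and 19, at ranks 6 and 7, were kept, so the muscle medians after these omissions give no direction. Muscle levels split into low and high tumors in both groups, with summed levels of 8.81 to 1330.2 in propylparaben and 10.6 to 11813 in methylparaben tumors. B cell genes were high in 1 tumor of each ester, with summed levels of 132.6 in propylparaben replicate 17 and 67.8 in methylparaben replicate 15.

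**Figure D5:**
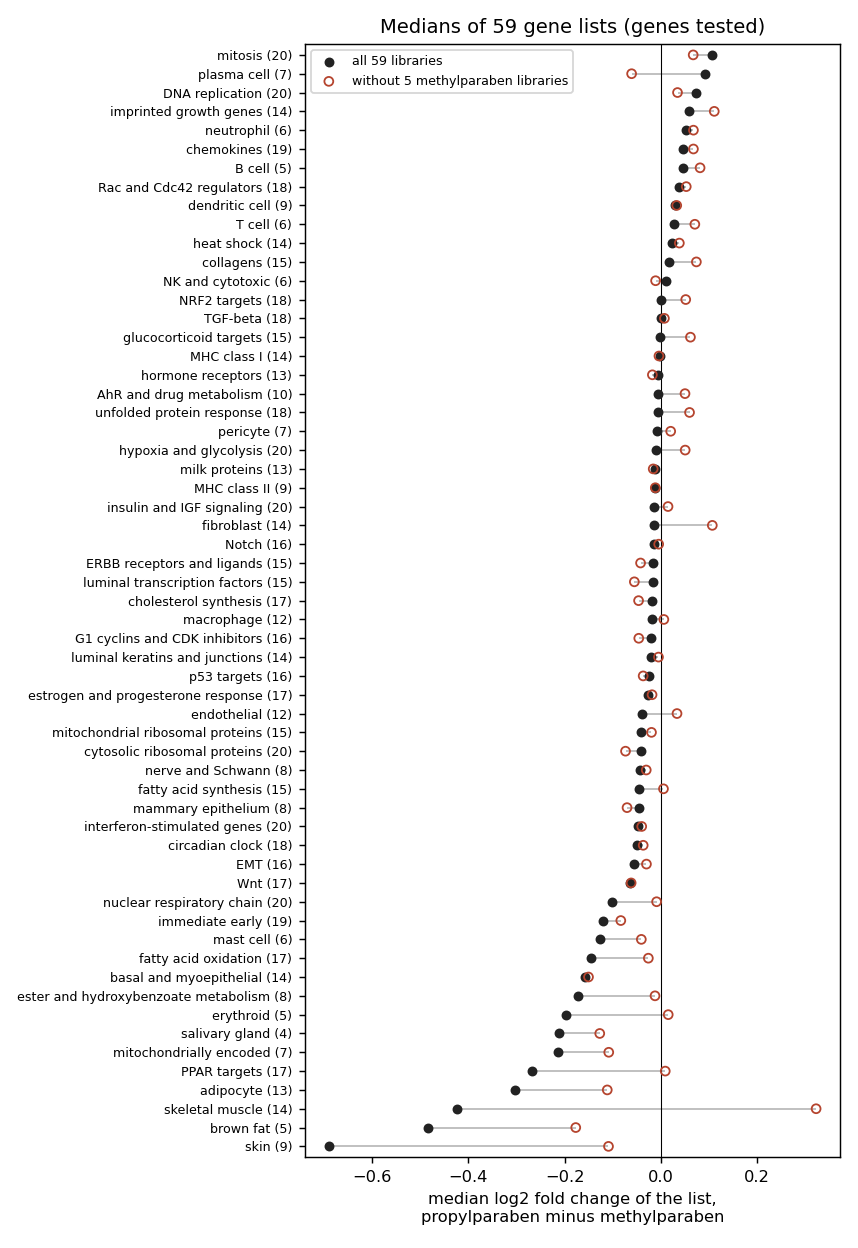
Median log2 fold change (propylparaben minus methylparaben) of each of 59 gene lists, with the number of genes tested, over all 59 libraries (black) and without methylparaben replicates 5, 6, 7, 10 and 20 (red rings). With those libraries 44 medians lie within 0.1 of 0. Without them the medians of skeletal muscle, fibroblast, plasma cell, erythroid and PPAR target genes are among those that cross 0. Only methylparaben libraries were left out, so these crossings give no direction between the esters.

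The 21 genes called by edgeR were singled out after their values were seen. Each of the 20 lower calls had its highest value in methylparaben replicate 5, 7, 10 or 20. Ucp1, the uncoupling protein of brown fat, had 746 in methylparaben replicate 5 and 46.2 in the next methylparaben library, while the highest of the 20 propylparaben values was 1.10; edgeR gave an adjusted p = 0.000738. Cidea, a lipid droplet protein of brown fat, had 564 in that library, and its edgeR adjusted p was 0.0012 with the library and 0.426 without it. Krt10, a keratin of differentiated epidermis, had 619.9 in methylparaben replicate 10, against at most 18.2 in a propylparaben library. Its edgeR adjusted p was 0.0117, and 0.415 without that library. Stfa3, of the cystatin family, was called by edgeR under each of the 40 single omissions, with a highest adjusted p of 0.0246 without methylparaben replicate 10, and 7 methylparaben libraries lay above every propylparaben library.

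Krt1, Lor and Flg, structural proteins of the epidermal barrier, the cystatin family genes Stfa3 and Cstdc5 and the calmodulin family gene Calm4 also peaked in methylparaben replicate 10. Reads of Stfa3 and Cstdc5 may be split between near-identical copies. Prr9, Krt6b, Crct1, Klk6, Klk7, Tchhl1, Rptn and 2310046K23Rik peaked in methylparaben replicate 20, with 691 for Prr9 against at most 7.73 with propylparaben. Bpifa2, a salivary protein gene, had 112 in methylparaben replicate 7 and at most 2.29 elsewhere in that group. Kcnk3, a potassium channel, peaked in methylparaben replicate 5, which held 87.8% of its sum over the 40 ester libraries. Cnst peaked there too, but that library held 7.11% of its sum. The edgeR adjusted p of Cnst was 0.0326, and edgeR called it under 30 of 40 single omissions. Its highest edgeR adjusted p was 0.0714, without propylparaben replicate 12. The single higher call was Comp, a cartilage matrix protein, with 66.2 in propylparaben replicate 12 and at most 2.16 with methylparaben; its edgeR adjusted p was 0.0372. Without the 5 methylparaben libraries edgeR called 0 genes, with 10 of the 21 then under the filter and a smallest adjusted p of 0.792. These libraries were singled out for their high values, and some edgeR fold changes stayed large without them. Cnst had -0.54 without and -0.59 with them. 2310046K23Rik had -3.16 without and -4.64 with them, and Krt6b -2.82 without and -4.57 with them. The next highest values of 2310046K23Rik and Krt6b, 17.5 and 38.5, lay in methylparaben replicate 15, which was kept. Comp had 3.002 without and 3.19 with them. Propylparaben replicate 12 held 77.2% of its sum over the 40 ester libraries, so Comp cannot speak to the 5 libraries. The lost calls do not show that the differences rest on those libraries alone. The fold changes of Comp, 2310046K23Rik and Krt6b do not show the opposite, as each has a high value in 1 kept library. With 1 library left out at a time the edgeR count ran from 5, without methylparaben replicate 10, to 28, without methylparaben replicate 2; it was 11 without methylparaben replicate 5 or propylparaben replicate 12, 12 without methylparaben replicate 20 and 14 without propylparaben replicate 13.

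Intron reads, which come largely from unspliced transcripts, gave the same count by limma. Of 14281 intron sets tested by limma 0 were called (0.00%), and 496 had an unadjusted p under 0.05 (259 higher and 237 lower, 3.47%). The lowest, median and highest intron levels of Fam167a were 3.19, 15.2 and 32.6 in the propylparaben tumors, against 1.96, 7.59 and 28.7 in the methylparaben tumors, with a fold change of 0.76 (0.31 to 1.21) and p = 0.00115, while its gene level had a fold change of 0.32. Introns of Myh15, a myosin heavy chain, and Grik1, a glutamate receptor, had fold changes of 1.04 and 1.06, with a median of 0 among methylparaben tumors. Introns of Lipe, hormone-sensitive lipase and one of the adipocyte markers, were lowest, median and highest at 3.61, 10.1 and 21.8 in the propylparaben tumors, against 9.92, 16.6 and 75.3 in the methylparaben tumors, with a fold change of -0.80 at p = 0.000400. Introns of Jagn1, an endoplasmic reticulum protein, had -1.07 at p = 0.000409, and of the unnamed transcript Gm13052 -1.12 at p = 0.000392. Each of these had an adjusted p of 1.000 by limma. edgeR called 1 intron set (0.00700%), of the unnamed transcript Gm40655, lower with propylparaben at an adjusted p = 0.0497, and DESeq2 called 0 (0.00%). Introns of Esr1 averaged 102 ± 41.5 in propylparaben and 100.4 ± 42 in methylparaben tumors, and those of Pgr 60.0 ± 40.1 in propylparaben and 83 ± 41.6 in methylparaben tumors (SD, n = 20 each).

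The log2 ratio of gene to intron level, tested for 6667 genes with both levels at 10 or more, gave 0 calls as well (0.00%), and 235 had an unadjusted p under 0.05 (91 higher and 144 lower, 3.52%). Iqcb1 came closest. Its log2 gene level minus log2 intron level was -3.17 ± 0.34 with propylparaben and -2.68 ± 0.35 with methylparaben (SD, n = 20 each), a difference of -0.49 (-0.70 to -0.28) with p = 1.29e-05 and adjusted p = 0.0858 by limma. All 20 propylparaben values lay below the methylparaben median, while the ranges overlapped (-3.86 to -2.73 with propylparaben and -3.34 to -2.09 with methylparaben). With 1 of 59 libraries left out at a time the adjusted p of Iqcb1 ran from 0.0199 to 0.232 by limma. It passed the threshold without propylparaben replicate 3 or 12, without methylparaben replicate 5, 13 or 18, and without vehicle replicate 17, and was lowest without methylparaben replicate 5; without all 5 methylparaben libraries named above it was 0.475. Eaf2 overlaps Iqcb1 on the other strand. Eif3e, a translation initiation subunit, had a difference of -0.34 and Epb41l4a, a cytoskeletal protein, -0.31, with 18 of 20 propylparaben values below the methylparaben median in both. Tmem246, 1700021F05Rik and AW549877 had differences of 0.77, 0.68 and 0.47, each at an adjusted p of 1.000 by limma.

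Whether tumors of one ester varied more than those of the other was tested on the distance of each value from its group median, in log2 units. Of 14487 genes 0 were called (0.00%), and 429 had an unadjusted p under 0.05 (189 more and 240 less variable with propylparaben, 2.96%). Aaas, a nuclear pore protein, lay on average 0.426 from the median with propylparaben and 0.144 with methylparaben, at an adjusted p = 0.886 by limma. Rnaseh2c, a subunit of ribonuclease H2, had 0.300 with propylparaben and 0.113 with methylparaben, and the complement gene C6 had 0.783 with propylparaben and 0.292 with methylparaben. The smallest p for a lower distance with propylparaben belonged to Stfa3 (0.113 with propylparaben and 1.19 with methylparaben), Krt1 (0.12 with propylparaben and 1.08 with methylparaben) and the splicing-associated Scaf1 (0.151 with propylparaben and 0.409 with methylparaben). Stfa3 and Krt1 were highest in methylparaben replicate 10, and for each 7 methylparaben libraries lay above every propylparaben library. Without the 5 methylparaben libraries both fell under the filter. The count of calls was 0 with and without those libraries. With distances taken from the group mean 9 genes (0.0621%) were called, all less variable with propylparaben, with the smallest adjusted p = 0.000187 by limma for Flg.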

How the data were processed

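Total RNA from flash-frozen tumors was sequenced, 1 library a tumor, per the labels' protocols. The submitters' processing notes name bcl2fastq 2.20.0.422, STAR 2.6.1d, HTSeq 0.10.0 and the build GRCm38; the annotation, strand setting, intron definition and scaling tool were not given in the sources used here. Deposited signal values are the authors' normalized counts for 55421 genes and 33282 intron sets. They equal CPM values scaled by edgeR's TMM factors to within 3.33e-13%, and each recovered read count lay within 1.63e-09 of a whole number (tolerance 1e-06), for all values. Summary lines of the gene table (5, naming no gene) stayed out of the gene tests and of the reads on genes. They were kept in the library totals behind the match to CPM, the scaling factors and the shares of reads outside features or multiply mapped. Reads outside features were 13.7 to 35.5% and multiply mapped reads 11.0 to 15.8%. Columns were tied to samples by tumor number.

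The main test was limma 3.58.1 (R 4.3.3) on log2(value + 1) with a trend, all 59 libraries in 1 fit, over features with a mean of at least 1 (both means at least 10 for the gene to intron ratio), adjusted by Benjamini-Hochberg over all features, with calls under 0.05. A fold change on this scale understates the change of low genes. Spread was the distance from the group median on the log2 scale. edgeR 4.0.16 (quasi-likelihood) and DESeq2 1.42.0 were run on the recovered reads, which was possible although the deposited unit is not counts. limma and edgeR were tested on simulated data. Over 11434 genes no pair of libraries of 1 group agreed within sampling noise (lowest chi-square per degree of freedom 1.97), so none was merged. Positions are from GENCODE M21 (GRCm38), which matched 55154 gene IDs.

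Genes were named by rule: the 5 smallest p in each direction, 3 in each for introns, ratio and spread, up to 2 of each list described, and 15 genes for role or earlier calls. The lists, the named genes and the comparison were chosen with earlier results of these data known. Replicate numbers follow accession order and only name a library.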

Additional observations from a re-analysis of the deposited data

How the results depend on the processing

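The count of 0 called genes held under other pseudocounts, filters and scalings, array weights, robust moderation, covariates (tumor number, 6 composition scores, first principal component), the fit to the 40 ester libraries and DESeq2; with the composition scores Cnst had the smallest adjusted p, 0.0585 by limma. edgeR called 21 genes and 1 intron set (Gm40655, edgeR adjusted p = 0.0497), and with deviations taken from the group mean instead of the median 9 genes were called less variable with propylparaben (smallest limma adjusted p = 0.000187, Flg); the cause of these changes was not tested. With single libraries left out, limma called 0 to 1 genes, 0 intron sets, 0 to 1 gene to intron ratios and 0 genes for spread, and edgeR 5 to 28 genes. The omission of 5 methylparaben libraries together and edgeR's omissions were chosen after the data were seen.

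Some estimates changed sign. Esr1 (-0.0159 as reported) was 0.000541 with quantile normalization, 0.0308 with edgeR, 0.0224 with DESeq2, 0.0395 with composition scores, 0.104 with the principal component and 0.0973 with edgeR without the 5 libraries. Rcor2 (-0.000593) was 0.0605 with a pseudocount of 10, 0.000557 with median-of-ratios scaling, 0.00337 with quantile normalization, 0.324 with edgeR, 0.319 with DESeq2 and 0.258 with edgeR without the 5 libraries. Ahr (-0.0657) was 0.00108 with array weights and 0.0156 with edgeR without the 5, and Ces1d (-0.455) 0.0222 with DESeq2; its edgeR value ran from -2.12, without propylparaben replicate 5, to -0.0086, without methylparaben replicate 5. With 1 library left out, limma and edgeR fold changes ran from -0.113 to 0.124 for Esr1, -0.103 to 0.445 for Rcor2, -0.0265 to 0.0516 for Otud1 and -0.147 to 0.0216 for Ahr. No paired analysis was possible because nothing in the labels ties a library of one group to one of another. At this depth the limit lies with genes of a mean level of 1 to 10, where 77.9% of intervals lay within 1.5-fold.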

Other observations

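Further gene groups not described above gave 0 calls between the esters and these values. Of 19 chemokine genes tested 10 lay above 0, with a median of 0.046; Cx3cl1, the chemokine fractalkine, averaged 62.3 ± 16 in propylparaben tumors and 51.4 ± 14.4 in methylparaben tumors (SD, n = 20 each), with a fold change of 0.28 (0.0076 to 0.55) at unadjusted p = 0.0441 by limma. Of 15 collagen genes 9 lay above 0, with a median of 0.016, and Col12a1, a collagen of fibril surfaces, had 0.30 (-0.067 to 0.67). Spp1, the secreted phosphoprotein osteopontin, averaged 832 ± 396 in propylparaben tumors and 668 ± 401 in methylparaben tumors, with a fold change of 0.37 (-0.11 to 0.85), on an EMT list whose 16 genes had a median of -0.057. The 19 immediate early genes tested had a median of -0.12, with 16 below 0; Fosb, a subunit of AP-1, had -0.49 (-1.16 to 0.19) and Junb, another, -0.12 (-0.28 to 0.042).

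The 18 circadian clock genes had a median of -0.049, with Cry1, a repressor of the clock, at 0.18 (-0.035 to 0.39) and Dbp, an output factor, at -0.20 (-0.52 to 0.11). Of 20 cytosolic ribosomal protein genes 19 lay below 0, but their median was -0.042 and all 20 intervals lay within 1.5-fold. The 17 cholesterol synthesis genes had a median of -0.018, with Hmgcs1, the synthase of the first committed steps, at -0.16 and Cyp51, a sterol demethylase, at -0.16, at unadjusted p = 0.0506 and 0.0508 by limma. Hmgcs1 was highest in methylparaben replicate 5, without which it had -0.098 at unadjusted p = 0.138 and Cyp51 -0.18 at p = 0.0321 by limma. Mal, a myelin and epithelial membrane protein on the nerve list, averaged 16.9 ± 6.75 in propylparaben tumors and 22.4 ± 9.06 in methylparaben tumors, with a fold change of -0.39 (-0.77 to -0.012) at unadjusted p = 0.0431 by limma.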
